A study of Mus musculus with 28 samples.

Results

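The expression of 7 genes of the epithelial cell surface and of its sorting machinery was followed along the reprogramming of mouse fibroblasts to induced pluripotent stem cells (iPSCs). The genes were Prss8, St14, Spint1, Spint2, Wfdc2, Rab25 and Ap1m2. They were taken by name from a table of 37620 gene rows, each name matched 1 row, and all 7 were among the 16932 genes with enough counts to test. The genes were chosen by their role and on measured values of these libraries, since earlier results had shown Prss8 and Wfdc2 higher in K36M than in WT cells within d2 to d8. For that reason the K36M to WT differences of the 7 genes at d2, d4, d6 and d8 are given as a description without a test, and tests are given for comparisons among the d0, noOKSM and iPSC libraries.

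Poly(A) RNA had been sequenced from K36M and WT cells, where K36M stands for histone H3 with methionine in place of a tail lysine. The WT libraries are called H3_3 in the library names. Each genotype was sampled as mouse embryonic fibroblasts (MEFs) without the reprogramming factors Oct4, Klf4, Sox2 and Myc (noOKSM), as MEFs at d0, on reprogramming days d2, d4, d6 and d8, and as passaged iPSCs, with 2 libraries in each of 14 groups and 28 in all. MEFs grew in DMEM with serum, cells under reprogramming in a medium named AGi and iPSCs in one named S/L. A comparison of iPSCs with d0 or with d2 to d8, or of these days with d0, therefore cannot tell time from medium. The labels name neither the gene that carries K36M nor the origin of the replicates, so p-values measure the spread between libraries, which may be technical. The noOKSM libraries carry the prefix MHb9 and all others MHb8, so that a comparison of noOKSM with d0 is also one of these library series. These are RNA levels of whole cultures, in which fewer expressing cells and less RNA per cell cannot be told apart.

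Matriptase, made from St14, and prostasin, made from Prss8, are membrane-anchored serine proteases that activate each other on epithelial cells and cut surface proteins such as the adhesion molecule EpCAM and the receptor PAR2. The Kunitz-type inhibitors HAI-1 and HAI-2, made from Spint1 and Spint2, sit on the same membranes and hold these proteases in check. Wfdc2 encodes a small secreted protein of the whey acidic protein family, found in many glandular and airway epithelia. Rab25 encodes an epithelial member of the Rab11 family of small GTPases that returns endocytosed proteins to the apical surface, and Ap1m2 encodes the medium subunit of AP-1B, the epithelial clathrin adaptor that sends receptors to the basolateral surface. Fibroblasts make little of these proteins, and iPSCs pass through a mesenchymal-to-epithelial change on their way from fibroblasts.

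In mm9 Prss8 (ENSMUSG00000030800) lies on chromosome 7 from 135069239 to 135073627 and Spint2 (ENSMUSG00000074227) on chromosome 7 from 30041350 to 30066996, both on the minus strand. St14 (ENSMUSG00000031995) and Ap1m2 (ENSMUSG00000003309) lie on the minus strand of chromosome 9, from 30896987 to 30939438 and from 21099901 to 21116777. Spint1 (ENSMUSG00000027315) and Wfdc2 (ENSMUSG00000017723) lie on the plus strand of chromosome 2, from 119063098 to 119075263 and from 164387913 to 164394010. Rab25 (ENSMUSG00000008601) lies on the minus strand of chromosome 3 from 88345951 to 88352222. The annotation places Myst1 on the opposite strand over the end of Prss8, the pseudogene Gm16071 on the opposite strand within St14, and the small RNA gene AC122525.1 on the same strand within Ap1m2. The strand setting of the counting is not given in the sources used here, so reads of these overlaps are uncertain.

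The promoters of 5 of the 7 genes were found in a table of RefSeq promoters on GRCm38.p6, each from 250 bases before to 50 after the gene's start. They are shown because the genes moved together along reprogramming. The stretch from 160 bases before to 20 after the start is printed, 5′ to 3′ on the gene's strand, and it holds each motif match found in the longer window. Capitals mark CACCTG, read on either strand and so also as CAGGTG, which is the E-box sequence that repressors of the Snail and Zeb families are known to bind, and AACCNGTT, the sequence type bound by grainyhead-like factors. The windows are Spint1 at chr2:119237200-119237379 on the plus strand, Spint2 at chr7:29281958-29282137 on the minus strand, Wfdc2 at chr2:164562555-164562734 on the plus strand, Rab25 at chr3:88548260-88548439 on the minus strand and Ap1m2 at chr9:21312314-21312493 on the minus strand.
Spint1: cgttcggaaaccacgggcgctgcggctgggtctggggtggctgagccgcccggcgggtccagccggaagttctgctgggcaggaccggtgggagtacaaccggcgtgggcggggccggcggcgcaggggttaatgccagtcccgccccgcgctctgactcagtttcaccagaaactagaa
Spint2: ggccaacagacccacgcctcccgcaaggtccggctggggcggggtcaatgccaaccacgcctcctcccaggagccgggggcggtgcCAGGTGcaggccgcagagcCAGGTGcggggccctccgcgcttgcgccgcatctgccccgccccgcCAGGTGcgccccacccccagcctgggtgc
Wfdc2: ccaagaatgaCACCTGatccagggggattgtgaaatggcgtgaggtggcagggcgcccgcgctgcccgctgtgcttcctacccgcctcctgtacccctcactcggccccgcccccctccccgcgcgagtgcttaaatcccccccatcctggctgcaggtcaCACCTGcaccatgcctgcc
Rab25: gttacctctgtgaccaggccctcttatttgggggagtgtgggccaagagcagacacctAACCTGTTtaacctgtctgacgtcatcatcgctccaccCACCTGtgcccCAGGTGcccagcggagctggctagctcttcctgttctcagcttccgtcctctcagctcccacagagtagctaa
Ap1m2: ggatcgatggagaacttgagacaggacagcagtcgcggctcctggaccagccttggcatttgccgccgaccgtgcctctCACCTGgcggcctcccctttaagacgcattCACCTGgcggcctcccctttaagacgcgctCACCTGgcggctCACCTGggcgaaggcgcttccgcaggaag

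The Ap1m2 promoter held 4 CACCTG matches, starting at positions -81, -51, -21 and -9, where 0 is the first base after the 250 bases before the start. A stretch of 28 bases that holds the first of them occurs again 30 bases further on. Among all 32851 promoters of the same length, 0.0548% held 4 or more matches and 20.2% held at least 1. Spint2 had 3 matches, at -74, -55 and -9, which 0.365% of promoters reached or passed. Wfdc2 had 2, at -150 and 2, and Rab25 had 2, at -64 and -53, against 2.88% of promoters with at least 2. Rab25 alone among the 5 had an AACCNGTT match, at -102, which 2.09% of all promoters hold, and its 8 bases overlap no CACCTG match. Spint1 had neither sequence in its window. The 2 sequences were chosen with the promoters in view, and a match is a description of letters, not of binding.

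**Figure D1:**
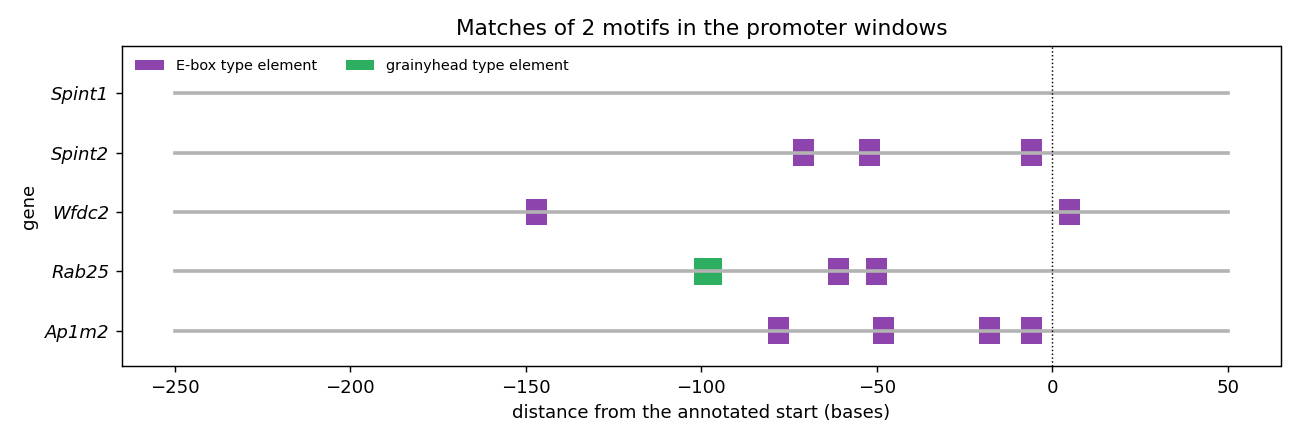
Positions of CACCTG on either strand (purple, E-box type) and AACCNGTT (green, grainyhead type) in 5 promoter windows, in bases from the annotated start (dotted line). Ap1m2 carries 4 purple matches within 81 bases of the start, Spint2 carries 3, Wfdc2 and Rab25 carry 2 each, and Spint1 carries none.

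Library depth ran from 17507521 to 35622279 counts, the lowest in a K36M iPSC library and the highest in a WT noOKSM library. Fibroblast markers (10 genes) summed to 37000 to 37200 CPM, which is counts scaled to library size, in K36M d0 and 26900 to 35000 in WT d0, and pluripotency markers (10 genes) to 6320 to 6710 CPM in K36M iPSCs and 6400 to 6420 in WT iPSCs, as the labels have it. The fibroblast markers still summed to 3460 to 3930 CPM in K36M iPSCs and 3730 to 4200 in WT iPSCs. The K36M d6 replicates differed from each other more than those of any other group, with a mean chi-square per gene of 65.5 against 2.35 to 31.6 elsewhere, and no library appeared more than once. The 7 genes' levels at d6 are therefore given per replicate, and later K36M d6 means carry this spread. Next came K36M noOKSM at 31.6 and WT d0 at 21.9, against 2.35 in K36M d0. The fit shares 1 estimate of spread per gene over all 14 groups. Tests with K36M noOKSM or WT d0 may therefore rest on a spread smaller than that of these groups.

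The proteases themselves followed different paths. Prss8 was close to 0 in fibroblasts, with 5 and 5 counts in K36M d0 and 1 and 1 in WT d0. In K36M cells its level was 0.322 and 0.271 CPM at d2, 7.08 and 5.87 at d4, 22.5 and 19.2 at d6, 24.8 and 25.2 at d8 and 20.6 and 18.0 in iPSCs. In WT cells it was 0 and 0.0386 CPM at d2, 0.053 and 0.127 at d4, 0.413 and 0.192 at d6, 2.70 and 2.58 at d8 and 16.4 and 16.9 in iPSCs. K36M libraries lay above WT libraries on each of the 4 days, and WT cells came within reach of the K36M level only as iPSCs. The K36M to WT log2 fold change was 5.95 ± 0.334 at d4, 6.07 ± 0.25 at d6 and 3.24 ± 0.169 at d8 (± SE, n = 2 libraries per group). At d2, with 12 counts in K36M and 1 in WT, the ratio was 15.1 with a 95% counting interval from 2.23 to 644.

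St14, the matriptase gene, stood well above its d0 level at d2 in both genotypes. It was at 30.3 and 25.9 CPM in K36M and 11.1 and 11.5 in WT at d2, and at 245 and 254 CPM in K36M and 24.5 and 25.2 in WT at d4. At d6 the values were 390 and 317 CPM in K36M and 59.5 and 50.8 in WT, and at d8 they were 317 and 311 CPM in K36M and 143 and 131 in WT. The K36M libraries were above the WT libraries on all 4 days, and the log2 difference was widest at d4. On d2, d4, d6 and d8 the log2 fold changes were 1.31 ± 0.126, 3.33 ± 0.123, 2.68 ± 0.118 and 1.20 ± 0.111.

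**Figure D2:**
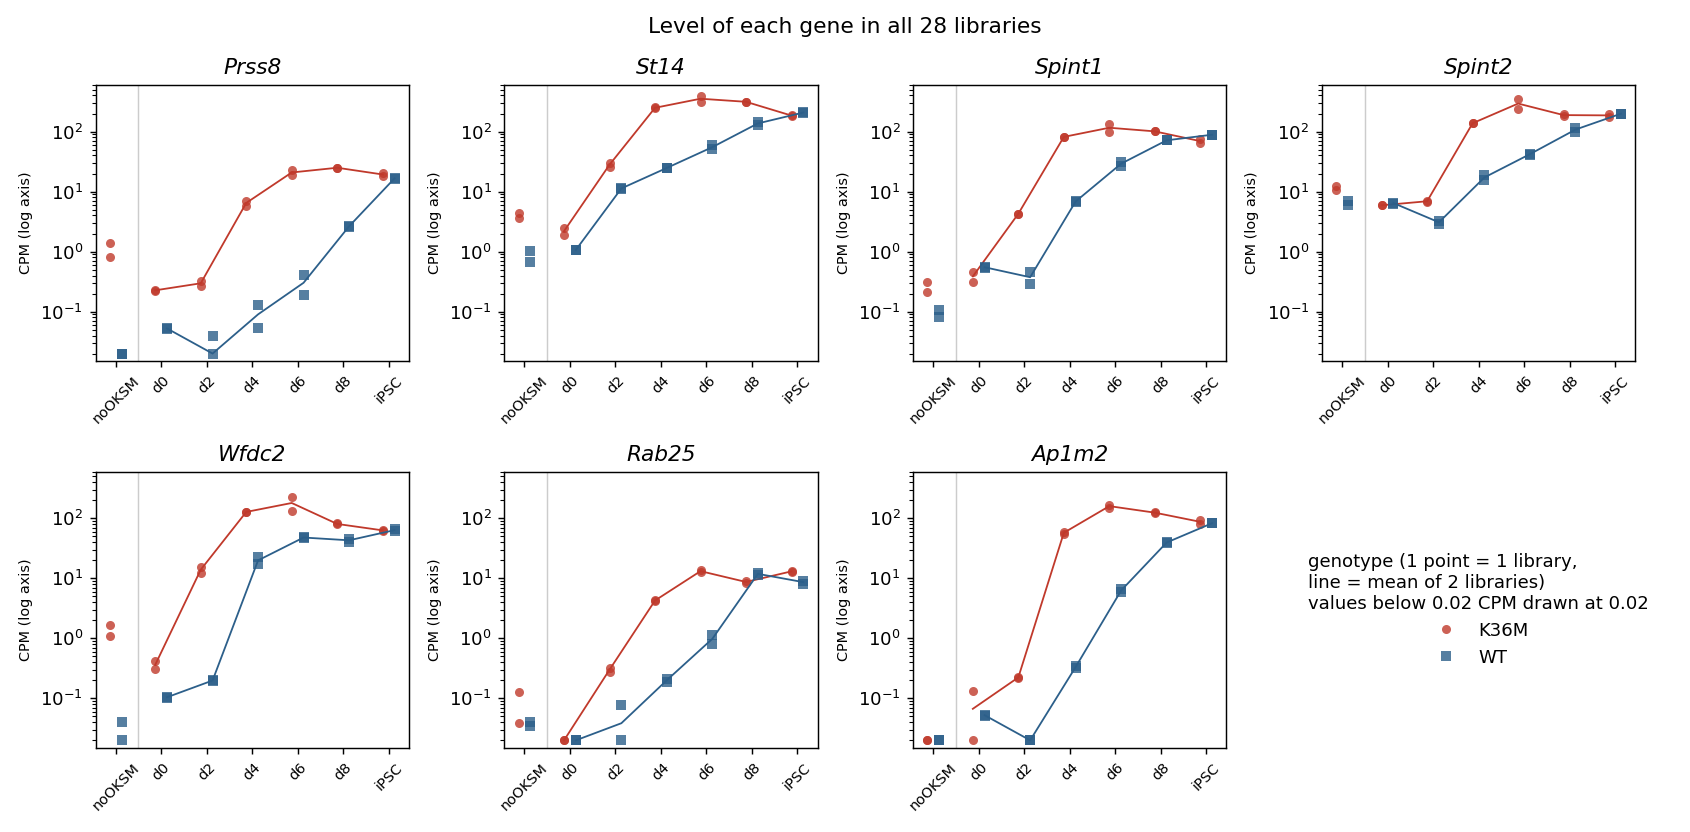
Level of each gene in all 28 libraries, in CPM on a log axis, by stage, with K36M as red circles and WT as blue squares; lines join the means of 2 libraries from d0 to iPSC, noOKSM stands apart at the left, and values below 0.02 CPM are drawn at 0.02. Red lies above blue for all 7 genes at d2, d4 and d6, and in iPSCs the colours overlap for Spint2, Wfdc2 and Ap1m2.

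The inhibitor genes moved with the proteases but not in step with each other at d2. Spint1 was at 4.28 and 4.28 CPM in K36M and 0.286 and 0.463 in WT at d2, while Spint2 was at 6.99 and 6.83 CPM in K36M and 3.27 and 2.89 in WT, near its fibroblast level of 5.89 and 5.94 CPM in K36M d0 and 6.55 and 6.33 in WT d0. At d4 Spint1 reached 82.1 and 81.3 CPM in K36M, against 7.05 and 6.66 in WT. Spint2 reached 139 and 137 CPM in K36M at d4, against 19.0 and 15.5 in WT. Spint2 was thus the only member with more than 100 counts in every fibroblast group, and its WT level at d2 was below that at d0.

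For both inhibitor genes the log2 difference of these 4 days was smallest at d8. Spint1 had 134 and 98.1 CPM in K36M and 31.5 and 27.0 in WT at d6, then 101 and 101 CPM in K36M and 71.2 and 72.1 in WT at d8. Spint2 had 347 and 240 CPM in K36M and 42.9 and 41.4 in WT at d6, then 195 and 182 CPM in K36M and 117 and 99.2 in WT at d8. The groups did not overlap on either day. Log2 fold changes at d2, d4, d6 and d8 were 3.49 ± 0.26, 3.58 ± 0.134, 1.99 ± 0.119 and 0.50 ± 0.113 for Spint1. For Spint2 they were 1.17 ± 0.188, 3.01 ± 0.143, 2.80 ± 0.138 and 0.80 ± 0.129. Without K36M d6 replicate 1, where both were higher, the d6 values were 1.74 for Spint1 and 2.51 for Spint2, and without replicate 2 they were 2.19 and 3.04.

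Wfdc2 had the largest fitted difference at d2 and stood furthest above its iPSC level at d6. At d2 it had 15.6 and 12.3 CPM in K36M and 0.204 and 0.193 in WT, a log2 fold change of 6.10 ± 0.363. At d4 it had 129 and 127 CPM in K36M and 22.8 and 17.1 in WT, and at d6 it had 228 and 133 CPM in K36M and 48.3 and 47.6 in WT. At d8 the level was 82.3 and 79.2 CPM in K36M and 46.1 and 40.1 in WT. The K36M libraries stayed above WT throughout, with log2 fold changes of 2.69 ± 0.182 at d4, 1.91 ± 0.173 at d6 and 0.91 ± 0.17 at d8. The d6 value was 1.47 without K36M replicate 1 and 2.25 without K36M replicate 2.

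The trafficking genes had the fewest counts in d0 fibroblasts. Rab25 had 0 counts in all 4 d0 libraries, and Ap1m2 had 3 and 0 counts in K36M d0 and 1 and 1 in WT d0. A summed count of 3 over a group is the floor used here, and no fold is given where both groups are at or under it. Rab25 was at 0.276 and 0.325 CPM in K36M and 0 and 0.0771 in WT at d2, a ratio of 7.53 with a counting interval from 1.68 to 69.2. It was at 4.18 and 4.37 CPM in K36M and 0.212 and 0.19 in WT at d4, and at 12.6 and 13.8 CPM in K36M and 1.15 and 0.818 in WT at d6. At d8 its order turned, with 8.96 and 8.46 CPM in K36M and 11.4 and 12.4 in WT. Rab25 was the only member with both K36M libraries below both WT libraries on a day of reprogramming. Its log2 fold changes were 4.39 ± 0.293 at d4, 3.74 ± 0.199 at d6 and -0.45 ± 0.148 at d8.

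Ap1m2 showed the widest separation of all 7 genes at d4. It had 0.23 and 0.217 CPM in K36M d2, from 5 and 4 counts, against 0 counts in both WT d2 libraries, which makes it at least 3.76-fold higher in K36M when WT is set to the floor of 3 counts over the group. At d4 it had 55.8 and 59.3 CPM in K36M and 0.318 and 0.349 in WT, a log2 fold change of 7.39 ± 0.191. At d6 it had 169 and 151 CPM in K36M and 6.75 and 5.82 in WT, and at d8 it had 123 and 126 CPM in K36M and 40.3 and 38.9 in WT. The log2 fold changes were 4.67 ± 0.131 at d6 and 1.65 ± 0.109 at d8. The K36M and WT libraries did not overlap on any of the 4 days.

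Counted over the 7 genes, both K36M libraries lay above both WT libraries for 7 on d2, d4 and d6 and for 6 on d8. The same was true of 32.5%, 39.9%, 41.3% and 43.9% of all tested genes on these days, and the reverse, which held for Rab25 at d8, of 39.9%. The median log2 fold change of the 7 genes was 3.49 at d2, or 2.75 with Ap1m2 at its bound, 3.58 at d4, 2.80 at d6 and 0.91 at d8. Over all tested genes the medians were 0.00, 0.02, 0.08 and 0.04. Since the genes were listed with these differences known, the counts and medians describe the list and support nothing further.

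Set against the level in WT iPSCs, the K36M cells were early and then passed it. The medium also differs between the days of reprogramming and iPSCs, so stage and medium cannot be told apart here. The 5 genes St14, Spint1, Spint2, Wfdc2 and Ap1m2 stood at 50% or more of the WT iPSC mean at d4 in K36M, and Prss8 and Rab25 did so at d6. In WT cells Wfdc2 was first at or above 50% at d6, St14, Spint1, Spint2 and Rab25 at d8, and Prss8 and Ap1m2 only as iPSCs. At d6 all 7 genes were higher in both K36M libraries than in both WT iPSC libraries, as were 37.2% of all tested genes. The K36M d6 means were 284% of the WT iPSC mean for Wfdc2, 193% for Ap1m2, 170% for St14, 153% for Rab25, 148% for Spint2, 131% for Spint1 and 125% for Prss8. The replicates of the most divergent, Wfdc2, were at 359% and 209%, and the lowest single replicate of any member was Spint1 replicate 2 at 110%. Per kilobase of exon, K36M d6 levels were 194 ± 50 CPM for Spint2, 159 ± 59.1 for Wfdc2, 92.1 ± 7.39 for Ap1m2, 77.2 ± 11.4 for St14, 41.9 ± 9.12 for Spint1, 11.2 ± 1.27 for Prss8 and 7.90 ± 0.505 for Rab25 (mean ± SD, n = 2).

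**Figure D3:**
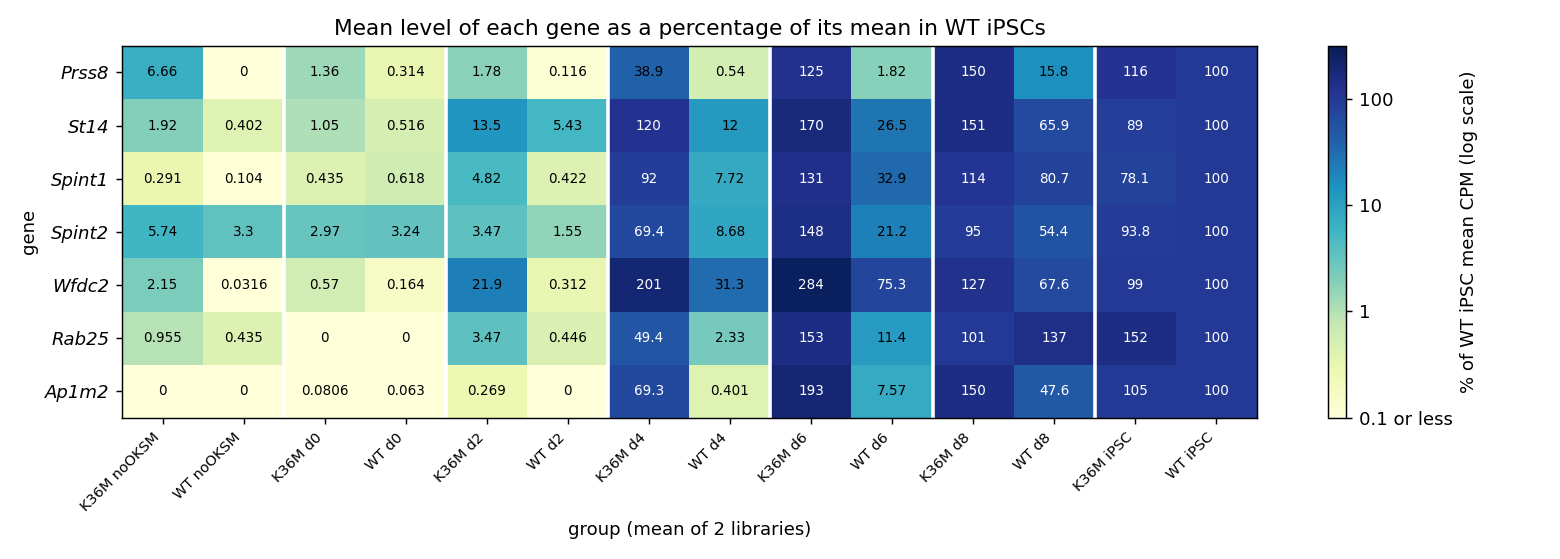
Mean level of each gene in each group (n = 2 libraries) as a percentage of its mean in WT iPSCs, written in each cell and coloured on a log scale, with K36M left of WT at each stage. The K36M columns of d6 are above 100 for all 7 genes, while WT d6 reaches 75.3 for Wfdc2 and 1.82 for Prss8.

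Most members were lower again in K36M iPSCs than at K36M d6, and here too each comparison with iPSCs is also one of medium. The 5 genes St14, Spint1, Spint2, Wfdc2 and Ap1m2 were higher in both K36M d6 libraries than in both K36M iPSC libraries, against 36.6% of all tested genes, and Prss8 and Rab25 overlapped. Prss8 alone had its highest K36M mean at d8, where it was 150% of the WT iPSC mean. At d8 the K36M libraries were above both WT iPSC libraries for 5 members (39.1% of all tested genes) and below for Spint2 (42.5%). Compared across time, K36M cells at d4 were above WT cells at d8 for 6 members (38.9% of all tested genes) and below for Rab25 (38%). In WT cells the d8 level was below the iPSC level for 6 members (44.1% of all tested genes) and above it for Rab25 (42.6%), whose WT mean of 11.9 CPM at d8 was 137% of that in WT iPSCs.

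The genes were also measured in MEFs that had not received the factors, and there 4 of the 7 were higher in K36M in the edgeR test over all genes. The share of all tested genes called higher in that comparison was 18.2%. Prss8 had 19 and 37 counts in K36M, or 0.805 and 1.41 CPM, and 0 in both WT libraries, at least 20.0-fold higher (edgeR adjusted p = 1.18e-07). St14 had 4.36 and 3.63 CPM in K36M and 0.664 and 1.01 in WT (log2 fold change 2.26 ± 0.213, edgeR adjusted p = 1.84e-08). Wfdc2 had 1.10 and 1.64 CPM in K36M and 0 and 0.0403 in WT, from 69 counts against 1, a ratio of 74.1 with a counting interval from 12.9 to 2970 (edgeR adjusted p = 6.65e-06). Spint2 had 10.5 and 12.3 CPM in K36M and 7.05 and 6.09 in WT (log2 fold change 0.80 ± 0.158, edgeR adjusted p = 0.000383). All of these levels were far below those of iPSCs, the highest being 6.66% of the WT iPSC mean for Prss8. Prss8 and Wfdc2 were under the minimum count of the filter in both WT libraries and were kept by their counts in other groups. A lower level in K36M could hardly have been found for them, so no conclusion is drawn from their p-values.

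The other 3 members did not pass in MEFs without OKSM. Spint1 had 0.212 and 0.306 CPM in K36M and 0.105 and 0.0807 in WT (log2 fold change 1.43 ± 0.609, edgeR adjusted p = 0.0935, 95% interval 0.12 to 2.73). Rab25 had 3 and 1 counts in K36M and 1 and 1 in WT (edgeR adjusted p = 0.511), and Ap1m2 had no count in any of the 4 libraries. Counted by overlap, 5 members had both K36M libraries above both WT libraries, against 33.5% of all tested genes. Markers of other cell types were read beside them. Simple epithelial markers summed to 237 to 277 CPM in K36M and 53.1 to 60.2 in WT, with 4 of 10 genes in K36M and 3 of 10 in WT at 1 CPM or more. The keratin genes made up nearly all of it, with Krt8 at 93.5 ± 5.71 CPM in K36M and 0.486 ± 0.00353 in WT, Krt18 at 104 ± 9.7 in K36M and 15.4 ± 1.96 in WT, and Krt19 at 56.6 ± 13 in K36M and 38.8 ± 2.83 in WT. By contrast, Cdh1 was at 0.233 ± 0.21 CPM in K36M and 0.0753 ± 0.00764 in WT and Cldn3 was at 0 in both. Trophoblast markers summed to 127 to 153 CPM in K36M and 5.13 to 6.29 in WT, with 1 of 10 at 1 CPM or more, and this was Krt7 at 139 ± 17.5 CPM in K36M and 5.20 ± 0.687 in WT, while Elf5 and Cdx2 were at 0 in both. Fibroblast markers summed to 20800 to 28000 CPM in K36M and 31700 to 36100 in WT. Keratinocyte markers summed to 57.2 to 76.3 CPM in K36M and 35.2 to 35.6 in WT, and endothelial markers to 26.6 to 31.6 in K36M and 7.23 to 8.39 in WT. Primitive endoderm markers, a list that shares Pdgfra with the fibroblast list, summed to 160 to 201 CPM in K36M and 95.7 to 102 in WT. Of these, 3 of 7 were at 1 CPM or more in each genotype, and Sox17 and Foxa2 were at 0 in both. The part of such cells in the differences of the 4 genes was not tested.

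At d0 St14 was the only member that passed, with 2.50 and 1.89 CPM in K36M and 1.07 and 1.07 in WT (log2 fold change 1.03 ± 0.245, edgeR adjusted p = 0.00519; 7.6% of all tested genes were called higher). The call did not hold without K36M d0 replicate 1, with 0.81 (edgeR adjusted p = 0.102), nor without WT d0 replicate 1, with 1.03 (edgeR adjusted p = 0.0503), in a range of 0.000847 to 0.102 over 11 alternatives. Prss8 had 10 counts in K36M and 2 in WT, a ratio of 4.33 with a counting interval from 0.923 to 40.7 (edgeR adjusted p = 0.122). Wfdc2 had 0.312 and 0.414 CPM in K36M and 0.107 and 0.102 in WT (log2 fold change 1.74 ± 0.919, edgeR adjusted p = 0.22). Neither inhibitor gene passed, with log2 fold changes of -0.50 ± 0.416 for Spint1 and -0.12 ± 0.178 for Spint2 (edgeR adjusted p = 0.505 and 0.716). Both K36M libraries were above both WT libraries for 3 members (29.5% of all tested genes) and below for Spint1 and Spint2 (30.6%). Beside the St14 call, simple epithelial markers summed to 52.3 to 52.5 CPM in K36M d0 and 34.9 to 43.7 in WT d0, where Krt8 was at 10.8 ± 0.077 in K36M and 0.829 ± 0.414 in WT. Keratinocyte markers summed to 93.6 to 95.6 CPM in K36M and 44.7 to 49.3 in WT, with Krt5, Krt1 and Dsg3 at 0 in both. Primitive endoderm markers, which share Pdgfra with the fibroblast list, summed to 228 to 235 CPM in K36M and 121 to 128 in WT. Of these, 3 of 7 were at 1 CPM or more in each genotype, and Sox17 was at 0 in both. Macrophage markers summed to 13.3 to 13.6 CPM in K36M and 43.7 to 47.3 in WT. The part of cells of these types in the St14 difference was not tested.

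**Figure D4:**
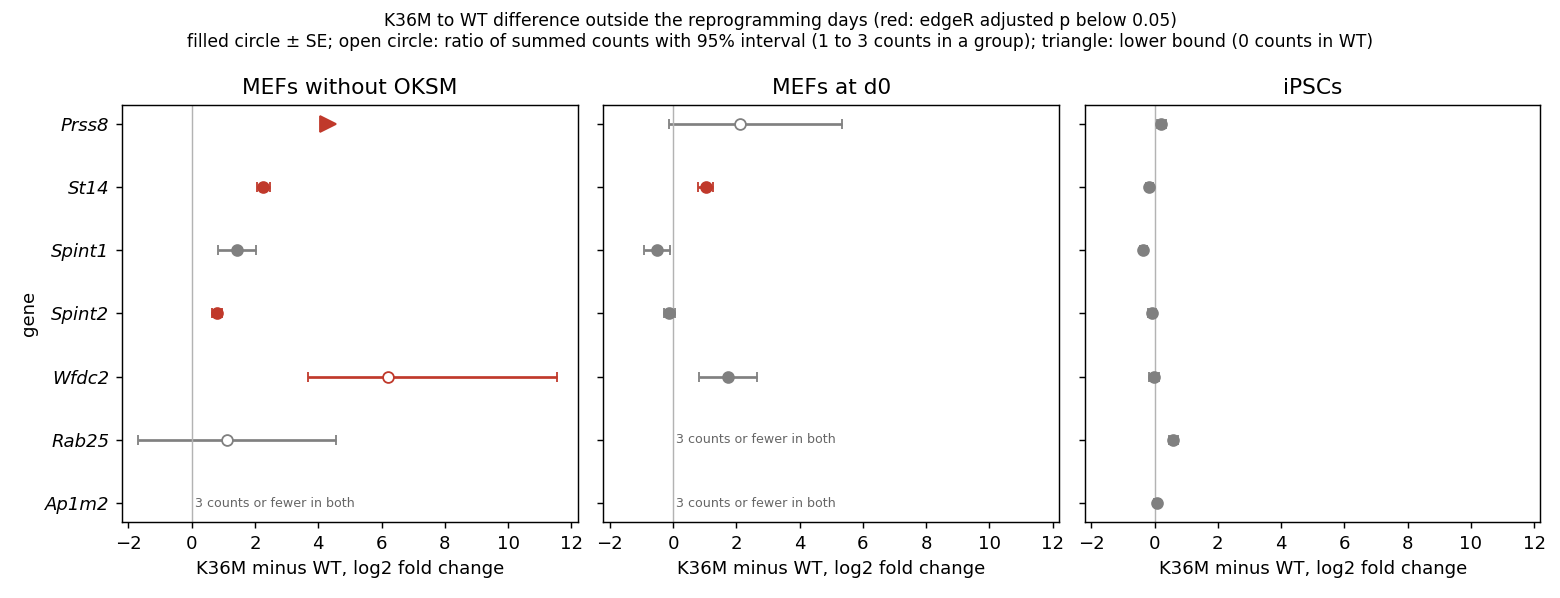
K36M to WT log2 fold change of each gene in MEFs without OKSM, in MEFs at d0 and in iPSCs (n = 2 libraries per group); filled circles carry the SE, open circles are ratios of summed counts with their 95% counting interval where a group had 1 to 3 counts, the triangle is a lower bound, and red marks an edgeR adjusted p below 0.05. Prss8, St14, Spint2 and Wfdc2 are red without OKSM, St14 alone is red at d0, and no gene is red in iPSCs.

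The noOKSM and d0 cells were then compared within each genotype. In K36M, Prss8, St14, Spint2 and Wfdc2 were higher in noOKSM than in d0, with log2 fold changes of 2.28 ± 0.398, 0.86 ± 0.184, 0.95 ± 0.164 and 1.92 ± 0.484 (edgeR adjusted p = 0.000142, 0.000994, 0.000108 and 0.00404; 18.8% of all tested genes were called higher). Prss8 and Wfdc2 were under the minimum count of the filter in both K36M d0 libraries. A level lower than at d0 could hardly have been found for them, so no conclusion is drawn from their p-values. The Wfdc2 call did not hold without K36M noOKSM replicate 2, where the change was 1.59 (edgeR adjusted p = 0.077, range 1.63e-06 to 0.077 over 11 alternatives). In WT, none rose (4.15% of all tested genes did) and Spint1 fell, to 3 and 2 counts in noOKSM, against 10 and 11 counts in d0 (log2 fold change -2.49 ± 0.54, edgeR adjusted p = 0.00424; 4.06% of all tested genes were called lower). The difference between the genotypes in this change passed for St14, at 1.23 ± 0.343, and for Spint2, at 0.92 ± 0.238 (edgeR adjusted p = 0.0111 and 0.00731; 12.8% of all tested genes were called higher). That of St14 did not hold without WT d0 replicate 1, with 1.23 (edgeR adjusted p = 0.054), nor without WT noOKSM replicate 1, with 0.95 (edgeR adjusted p = 0.0889), in a range of 0.00588 to 0.0889 over 15 alternatives. Wfdc2 and Spint1 did not pass, with adjusted p of 0.0866 and 0.0709 in edgeR, but ranges over the 15 alternatives of 0.017 to 0.256 and 0.049 to 0.29. The library series differs between noOKSM and d0 in both genotypes alike.

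All 7 genes were higher in iPSCs than at d0 in both genotypes. Of all tested genes, 39.4% in K36M and 40.1% in WT were called higher. Prss8, Wfdc2, Rab25 and Ap1m2 were under the minimum count of the filter in every d0 library. Their counts in other groups kept them in the tested set, so a fall from d0 could hardly have been found. No conclusion is drawn from the p-values of these genes, and their changes are given as a description. The edgeR adjusted p lay between 1.75e-19 for St14 and 2.77e-15 for Rab25 in K36M, and between 5.28e-20 for St14 and 3.91e-14 for Rab25 in WT. In K36M the log2 fold changes were 6.38 ± 0.263 for Prss8, 6.39 ± 0.157 for St14, 7.47 ± 0.202 for Spint1, 4.98 ± 0.162 for Spint2 and 7.42 ± 0.303 for Wfdc2. Rab25 was at least 193-fold higher in K36M iPSCs than in K36M d0, and Ap1m2 had a ratio of 1290 with a counting interval from 440 to 6240. In WT they were 7.59 ± 0.176 for St14, 7.32 ± 0.195 for Spint1, 4.95 ± 0.163 for Spint2 and 9.18 ± 0.371 for Wfdc2. Prss8 had a ratio of 319 with a counting interval from 88.0 to 2640 in WT, Ap1m2 one of 1590 with an interval from 440 to 13100, and Rab25 was at least 111-fold higher. The rise of St14 was smaller in K36M than in WT by 1.20 ± 0.269 on the log2 scale (difference -1.20, edgeR adjusted p = 0.0066; 3.78% of all tested genes were called lower). Without K36M d0 replicate 1 this difference was -0.98 (edgeR adjusted p = 0.0824, range 0.000538 to 0.0824 over 15 alternatives).

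In iPSCs none of the 7 genes passed the edgeR test between the genotypes, and 1.25% of all tested genes did, 0.756% higher and 0.49% lower in K36M. Rab25 and Spint1 had an unadjusted edgeR p below 0.05, at 0.000708 and 0.00486. The share of all tested genes at that looser threshold was not counted, so nothing is drawn from it. Rab25 had 13.5 and 12.7 CPM in K36M and 8.12 and 9.19 in WT (log2 fold change 0.60 ± 0.15, edgeR adjusted p = 0.054, 95% interval 0.28 to 0.92), and DESeq2 called it (adjusted p = 0.0321, range 0.00251 to 0.565 over 11 alternatives) and no other member. Spint1 had 74.9 and 63.9 CPM in K36M and 89.3 and 88.3 in WT (log2 fold change -0.36 ± 0.114, edgeR adjusted p = 0.154, 95% interval -0.60 to -0.11). The intervals of the log2 fold change were -0.10 to 0.53 for Prss8, -0.41 to 0.07 for St14, -0.37 to 0.18 for Spint2, -0.38 to 0.35 for Wfdc2 and -0.15 to 0.30 for Ap1m2. Prss8 and Rab25 were higher in both K36M libraries (23.7% of all tested genes) and St14 and Spint1 lower in both (26.5%).

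The balance of inhibitor to protease RNA was read per library as the sum of Spint1 and Spint2 over St14, each in CPM per kilobase. In fibroblasts the inhibitors dominated, with a ratio of 7.33 and 9.92 in K36M d0 and 19.3 and 18.7 in WT d0, and of 7.36 and 10.4 in K36M noOKSM and 32.4 and 18.4 in WT noOKSM. At d2 the ratio was near 1 in both genotypes, at 0.931 and 1.07 in K36M and 0.932 and 0.827 in WT. It was 2.27 and 2.16 in K36M and 2.82 and 2.30 in WT at d4, 3.26 and 2.80 in K36M and 3.06 and 3.34 in WT at d6, and 2.39 and 2.31 in K36M and 3.30 and 3.21 in WT at d8. In iPSCs it was 3.79 and 3.54 in K36M and 3.70 and 3.50 in WT. Thus the ratio overlapped between genotypes at d2, d6 and in iPSCs, although the levels of its parts did not overlap at d2 and d6, and it was lower in both K36M libraries in noOKSM and at d0, d4 and d8. Spint2 stood above Spint1 per kilobase in every library, by 2.91-fold to 34.5-fold in K36M and 2.49-fold to 22.3-fold in WT from d0 to iPSC.

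Ap1m2 was then set beside Ap1m1, the ubiquitous medium subunit that competes for the same place in the AP-1 adaptor. Per kilobase Ap1m2 made up 65.7% and 69.2% of the pair in K36M and 0.792% and 0.828% in WT at d4. At d6 the shares were 86.9% and 88.7% in K36M and 16.0% and 13.7% in WT, and at d8 83.4% and 83.1% in K36M and 62.9% and 61.0% in WT. In iPSCs they met, at 83.5% and 82.7% in K36M and 82.8% and 82.9% in WT. Ap1m1 itself was lower in K36M, by -0.56 ± 0.0962 at d4 and -0.69 ± 0.097 at d6 on the log2 scale (edgeR adjusted p = 3.52e-05 and 1.43e-06), and its log2 fold change at d8 was 0.05 ± 0.0969 (edgeR adjusted p = 0.706). Rab25 never came to dominate its family in this way. Its share of the summed Rab25, Rab11a and Rab11b RNA per kilobase was at most 14.3% in K36M and 1.45% in WT at d6, 11.3% in K36M and 14.2% in WT at d8, and 19.7% in K36M and 15.1% in WT in iPSCs.

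**Figure D5:**
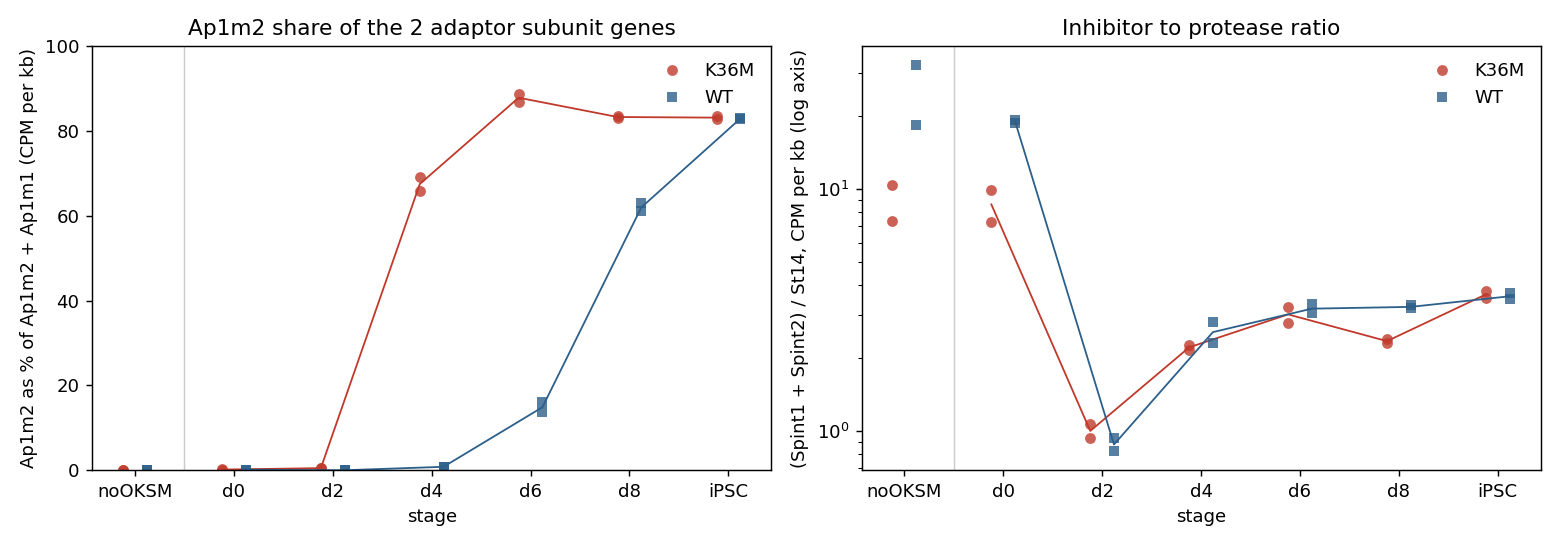
Left, Ap1m2 as a percentage of Ap1m2 plus Ap1m1 and, right, the sum of Spint1 and Spint2 over St14 on a log axis, both from CPM per kilobase of exon, with 1 point per library (K36M red circles, WT blue squares) and lines through the means of 2 libraries from d0 to iPSC. The Ap1m2 share at d4 is 65.7% to 69.2% in K36M and 0.792% to 0.828% in WT, while the inhibitor ratio falls near 1 at d2 in both.

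Genes that act with the 7 were read from 5 lists chosen for their roles, with earlier results of these data known. The counts and p-values of these lists at every stage therefore describe the lists and support nothing further. Of 37 proteases, substrates, receptors and serpins that work with matriptase and prostasin, 32 were tested. Those higher in K36M numbered 10, 17, 20 and 21 on d2, d4, d6 and d8, and those lower 2, 2, 4 and 5, while 9.74%, 27.1%, 37.3% and 31.6% of all tested genes were called higher and 10.4%, 25.8%, 33.7% and 29% lower. The median log2 fold changes of this list were 1.35, 2.46, 2.10 and 1.39, or 1.23, 2.20, 1.81 and 1.39 with genes at 0 counts in 1 group at their bound, beside 0.00, 0.02, 0.08 and 0.04 over all tested genes. At d0, 6 of the list were higher and 4 lower, while 7.6% of all tested genes were called higher and 8.31% lower. In noOKSM 12 were higher and 2 lower (18.2% and 16.7% of all tested genes), and in iPSCs 1 was lower (0.49%). Without either K36M d6 replicate the d6 counts were 19 higher and 3 lower. Without WT d8 replicate 2 or K36M d8 replicate 2 the genes lower at d8 numbered 3, and the iPSC call was lost without any 1 of the 4 iPSC libraries.

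Cdcp1, a transmembrane protein cut by serine proteases and among the listed partners with the largest changes, had 82.5 ± 3.09 CPM in K36M and 0.683 ± 0.0656 in WT at d4 (log2 fold change 6.88 ± 0.255). Cldn7, a claudin that associates with EpCAM, had 65.0 ± 0.205 CPM in K36M and 0.286 ± 0.0457 in WT (7.84 ± 0.234). Epcam itself had 349 ± 9.58 CPM in K36M and 8.43 ± 0.306 in WT at d4 (5.37 ± 0.121). Hpn, the gene of the related protease hepsin, had 34.8 ± 10.8 CPM in K36M and 0.279 ± 0.19 in WT at d6 (6.92 ± 0.306). F2rl1, which encodes PAR2, was higher already at d0, with 94.9 CPM in K36M and 31.7 in WT (1.58 ± 0.126), while Plau and Plaur, the urokinase and its receptor, were lower there, by -0.92 ± 0.164 and -0.70 ± 0.127. All changes named here passed the edgeR test over all genes, with adjusted p between 2.14e-19 for Epcam at d4 and 0.000444 for Plaur at d0.

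Relatives of the inhibitors were few. Of 20 listed WFDC and Kunitz genes 17 were found and 8 tested, of which 0 were higher and 2 lower in K36M at d2, 1 and 4 at d4, 2 and 4 at d6 and 1 and 4 at d8, with medians of -0.15, -0.64, -0.93 and -1.03. On these days 9.74%, 27.1%, 37.3% and 31.6% of all tested genes were called higher and 10.4%, 25.8%, 33.7% and 29% lower. At d0, 1 was higher and 1 lower (7.6% and 8.31% of all tested genes), and in noOKSM 2 and 2 (18.2% and 16.7%). Without any 1 of the d2 libraries 1 was lower at d2, and without WT d6 replicate 1 the number higher at d6 was 1. Those lower included Col6a3, a collagen chain with a Kunitz domain, at 2.20 ± 0.0974 CPM in K36M and 92.9 ± 9.5 in WT at d6, and App, the amyloid precursor, at 118 ± 32.2 CPM in K36M and 528 ± 11.8 in WT (log2 fold changes -5.40 ± 0.315 and -2.16 ± 0.143, edgeR adjusted p = 4.26e-12 and 7.24e-12). Tfpi, the tissue factor pathway inhibitor, was also lower at d4, by -1.08 ± 0.1 (edgeR adjusted p = 4.55e-09).

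The adaptor and recycling genes around Ap1m2 and Rab25 were mixed. Of 24 tested AP-1 and sorting genes 2 were higher and 2 lower in K36M at d2, 1 and 10 at d4, 2 and 12 at d6 and 3 and 8 at d8, with medians of -0.04, -0.18, -0.25 and -0.09. Read against the shares of all tested genes on these days (9.74%, 27.1%, 37.3% and 31.6% higher, 10.4%, 25.8%, 33.7% and 29% lower), the d2 counts are near the background. At d0 none passed, and in noOKSM 1 was higher and 5 lower, or 3 lower without WT noOKSM replicate 1 or K36M noOKSM replicate 2. Of all tested genes, 7.6% were called higher and 8.31% lower at d0, and 18.2% and 16.7% in noOKSM. The small counts were unstable. Under the other settings with all libraries kept, those lower at d2 numbered 0 to 6 and those higher in noOKSM 1 to 8. Small counts at d2, d6 and d8 also moved when 1 library was left out. The small subunit genes differed in direction at d4, with Ap1s2 at 63.9 ± 2.11 CPM in K36M and 176 ± 0.229 in WT and Ap1s3 at 27.3 ± 0.222 in K36M and 14.2 ± 0.218 in WT (log2 fold changes -1.46 ± 0.178 and 0.94 ± 0.17, edgeR adjusted p = 3.56e-07 and 5.97e-05). Of 26 Rab11 family and apical trafficking genes 9 were higher and 3 lower at d2, 12 and 8 at d4, 12 and 7 at d6 and 11 and 7 at d8, with medians of 0.01, 0.52, 0.47 and 0.16. Without K36M d4 replicate 1, 5 of them were lower at d4. At d0, 3 were higher and 5 lower, and in noOKSM 8 and 7, of which 0 were higher at d0 without WT d0 replicate 1, 2 lower at d0 without K36M d0 replicate 1 and 5 higher in noOKSM without WT noOKSM replicate 1. Myo5b, the motor that Rab11 and Rab25 recruit, had 8.01 ± 0.637 CPM in K36M and 0.244 ± 0.0306 in WT at d4, and Mal2, a protein of apical transcytosis, had 18.4 ± 1.46 in K36M and 0.535 ± 0.219 in WT (5.04 ± 0.429 and 5.19 ± 0.286, edgeR adjusted p = 1.02e-09 and 6.14e-13). Rab27b, a Rab of secretory granules, went the other way, with 0.864 ± 0.0395 CPM in K36M and 15.0 ± 1.17 in WT (-4.11 ± 0.23, edgeR adjusted p = 7.99e-13).

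Polarity genes that passed were mostly higher in K36M from d2 to d8, but not in MEFs. Of 18 tested, 4 were higher and 0 lower in K36M at d2, 8 and 0 at d4, 9 and 3 at d6 and 11 and 1 at d8, with medians of 0.05, 0.23, 0.37 and 0.46. The shares of all tested genes on these days were 9.74%, 27.1%, 37.3% and 31.6% higher and 10.4%, 25.8%, 33.7% and 29% lower. They were 7.6% higher and 8.31% lower at d0, and 0.756% higher in iPSCs. At d0, 1 was higher and 2 lower, and in noOKSM 4 were higher and 8 lower (18.2% and 16.7% of all tested genes), the last being 5 without WT noOKSM replicate 1 and 4 without K36M noOKSM replicate 2. Without K36M d6 replicate 2 the number lower at d6 was 6. In iPSCs 1 polarity gene was higher, a call lost without WT iPSC replicate 1 or either K36M iPSC replicate, and no gene of the WFDC, AP-1 and Rab11 lists passed. Crb3, the epithelial Crumbs protein of the apical membrane, had 46.8 ± 1.86 CPM in K36M and 0.228 ± 0.053 in WT at d4 (log2 fold change 7.71 ± 0.212, edgeR adjusted p = 2.44e-16). Pard6b, of the Par complex, had 27.9 ± 1.9 CPM in K36M and 4.73 ± 0.0571 in WT, and Llgl2, a lateral polarity protein, had 46.1 ± 0.35 in K36M and 9.08 ± 0.471 in WT (2.56 ± 0.124 and 2.34 ± 0.13, edgeR adjusted p = 6.96e-14 and 7.12e-13). Simple epithelial markers summed to 2420 to 2460 CPM in K36M and 211 to 237 in WT at d4, with all 10 at 1 CPM or more in both, keratinocyte markers to 507 to 638 CPM in K36M (6 of 10) and 41.6 to 44.1 in WT (2 of 10) at d6, and trophoblast markers to 136 to 189 CPM in K36M (7 of 10) and 14.2 to 18.2 in WT (3 of 10) at d6. Pluripotency markers summed to 859 to 869 CPM in K36M (10 of 10) and 234 to 327 in WT (3 of 10) at d4. At d6 they summed to 1860 to 2730 CPM in K36M (10 of 10) and 292 to 371 in WT (8 of 10). This list holds Sox2 and Pou5f1, the gene of Oct4, which are among the reprogramming factors, so its sum is not a measure of pluripotency alone. Fibroblast markers summed to 611 to 613 CPM in K36M and 2290 to 2840 in WT at d4 and to 416 to 786 in K36M and 3260 to 3400 in WT at d6. Their part in the levels of the 7 genes was not tested.

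Likeness of course was measured by Pearson's r of log2(mean CPM + 0.5) over the 14 groups, which share libraries and a common time course, among 11490 genes. Between the 7 genes r ran from 0.772 for Prss8 and Wfdc2 to 0.981 for Spint2 and Ap1m2. The gene closest to Spint1 was Cdh1, which encodes E-cadherin (r = 0.997), then Epcam (0.996) and Trh (0.99). Ap1m2 was closest to Eras (0.996), Crb3 (0.993) and Cldn4 (0.993), Spint2 to Cldn4 (0.987), Tmem51 (0.981) and Elmo3 (0.981), and Rab25 to Aifm3 (0.978), Gpx2 (0.976) and Wdr31 (0.975). Prss8 was closest to Hpn (0.99), Slc39a4 (0.987) and Gal3st3 (0.984), St14 to Dpysl5 (0.993), Bex4 (0.99) and Slc2a3 (0.989), and Wfdc2 to Lsr (0.985), Ckmt1 (0.978) and Bex4 (0.975). To the mean course of the 7 the closest were Smagp (0.994), Epcam (0.992), Nodal (0.992), Tfap2c (0.99) and Cldn4 (0.989). Hpn, the hepsin gene, repeated the late WT course of Prss8, with 33.1 CPM in K36M and 1.64 in WT at d8 and 19.0 CPM in K36M and 22.1 in WT in iPSCs.

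By mean level, K36M d6 stood first of the 14 groups for all members but Prss8, for which K36M d8 did. The K36M d6 libraries overlapped those of the next group for St14, Spint1 (both K36M d8) and Rab25 (K36M iPSC), and stood apart from it for Spint2 (WT iPSC), Wfdc2 (K36M d4) and Ap1m2 (K36M d8). The K36M and WT iPSC groups were neighbours in the order of Prss8, St14, Wfdc2 and Ap1m2, and their libraries overlapped for Wfdc2 and Ap1m2. The lowest group was WT noOKSM for Prss8, St14, Spint1 and Wfdc2, and WT d2 for Spint2. Rab25 had no count in d0 of either genotype, and Ap1m2 none in K36M noOKSM, WT noOKSM or WT d2.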

How the data were processed

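The data were read counts per gene from poly(A) RNA of 28 libraries, 2 in each of 14 groups, made with a directional NEBNext kit after miRNeasy extraction and read on an Illumina HiSeq instrument, per the labels' protocols. The authors deposited 1 table of raw counts, whole numbers whose totals differed between libraries. The tools named, per the submitters' processing notes, are HTSeq 0.11.2, STAR 2.5.0 and edgeR, with mm9 as build. Annotation and strand setting were not given in the sources used here, and coordinates come from GENCODE vM1 on mm9. Columns were matched to samples by name. For iPSC and noOKSM the column names lack the stage, so library number, genotype and replicate number identified the sample, and 0 columns were unused. Every row named a gene.

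Counts were fitted in edgeR 4.0.16 (R 4.3.3) with TMM scaling after filterByExpr at a minimum count of 10 and a minimum total of 15. One robust quasi-likelihood model covered the 14 groups, with 16932 genes and 14 residual degrees of freedom. P-values were two-sided and Benjamini-Hochberg adjusted over all genes of a contrast, with a threshold of 0.05. A log2 fold change carries an SE equal to its size over the square root of the F statistic. Its interval, like the intervals of count ratios, is at the 95% level, and the latter are exact for summed counts scaled by library size. These ratios and the floor of 3 counts cover counting error only. CPM uses TMM-scaled library sizes, and levels of different genes are compared per kilobase of exon. Library totals of 17507521 to 35622279 counts limit the precision of genes with few counts.

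The 7 genes, the gene and marker lists and the rules were chosen with earlier results of these data known. List genes named in the text come from the up to 4 per list and stage with the largest changes among those that passed with a mean of at least 5 CPM in 1 group. The likeness of courses was taken over genes reaching that level. On simulated counts modelled on K36M and WT d0 (17018 genes), 100% of 200 genes changed by 1 or 2 on the log2 scale were recovered, with 9 false calls. The changed genes were drawn only from those with ample counts in WT d0, and all genes were given the same spread between libraries. The simulation therefore says nothing of genes with few counts or of groups whose replicates differ more. The alternatives were RLE size factors, total count scaling, DESeq2 1.42.0, no low-count filter, a minimum count of 30, a replicate block, a fit of only the groups compared and leaving out each library. No p-value was computed for the list as a whole. One gene that the naming rule would give is not reported here.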

Additional observations from a re-analysis of the deposited data

Results flagged for a closer look

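In 3 cases the K36M to WT difference changed between cell states by a test of that change itself. For St14 the iPSC minus d0 change was smaller in K36M than in WT (difference -1.20 on the log2 scale), and the noOKSM minus d0 change was larger in K36M (difference 1.23; edgeR adjusted p = 0.0066 and 0.0111). Spint2 was the other gene, with a noOKSM minus d0 change 0.917 higher in K36M (edgeR adjusted p = 0.00731). Each rests on 2 libraries per group, and both St14 differences were lost when 1 library was left out.

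In 5 cases both K36M libraries lay below both WT libraries at 1 stage although they lay above at most others, and the difference between stages was not tested. St14 did so in iPSCs (log2 fold change -0.169), against 6 other stages with K36M above. Spint1 did so at d0 (-0.505) and in iPSCs (-0.356), with K36M above at the other 5 stages. Spint2 did so at d0 (-0.121), with K36M above at 5 stages. Rab25 did so at d8 (-0.449), with K36M above at 4 stages. Of all tested genes, 30.6% had both K36M libraries below both WT libraries at d0, 26.5% in iPSCs and 39.9% at d8. The share of genes that change side between stages was not counted, so nothing is drawn from these cases.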

How the results depend on the processing

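Of 895 log2 fold changes of the 7 genes recomputed under another setting, 837 kept their direction and their side of the threshold, or, where untested, stayed within the margin of replicate spread. Calls in iPSCs depended most on the setting. Of the 7 genes 0 differed in iPSCs, but 1, Rab25, passed with total count scaling, with DESeq2, without the low-count filter and at a minimum count of 30, and 2, Rab25 and Spint1, in a fit of only the groups compared. Over all genes the iPSC count of 211 became 319 with DESeq2, 447 without the filter and 1397 in a fit of only the groups compared, which also gave 6818 against 3405 at d2, 7731 against 12014 at d6 and 2407 against 1321 for the genotype difference in the iPSC minus d0 change. The cause was not tested.

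Leaving out 1 library at a time gave 55 to 251 genes in iPSCs, 2097 to 2254 at d2, 1199 to 2754 at d0 (2694 with all libraries), 3313 to 5592 for noOKSM minus d0 in K36M (5834) and 635 to 1379 in WT (1389). For the genotype difference it gave 2301 to 4790 in noOKSM minus d0 (4244) and 694 to 1574 in iPSC minus d0. Of the 7 genes, 0 to 1 passed at d0, 0 to 1 for the genotype difference in iPSC minus d0 and 1 to 2 in noOKSM minus d0. Where a group was left with 1 library, it was assumed to vary like the others.

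Directions turned 7 times, each for a change that had not passed. With 1 library left out at a time, the iPSC log2 fold change ran from -0.0204 to 0.166 for Ap1m2, from -0.192 to 0.00134 for Spint2 and from -0.0618 to 0.0354 for Wfdc2. The genotype difference in iPSC minus d0 ran from -0.104 to 0.448 for Spint1 and from -0.0699 to 0.123 for Spint2. The noOKSM minus d0 change of Spint2 in WT ran from -0.0806 to 0.135, and it was -0.0244 with total count scaling. With the replicate number as a block the members called were unchanged in every contrast tested (4 in noOKSM, 1 at d0, 0 in iPSCs), and 5981, 2714 and 217 genes passed there over all genes. Same-numbered K36M and WT libraries deviated together with correlations of -0.133 to 0.265 over the 7 stages. With 2 libraries per group these values cannot decide whether the numbers pair the samples. Of the genotype difference in noOKSM minus d0, Spint1 also passed with total count scaling (2.05), and Wfdc2 with DESeq2, without the low-count filter and in a fit of only the groups compared (4.06 to 4.40). Depth limits Rab25, Ap1m2 and Spint1 in fibroblasts of both genotypes, and Prss8 and Wfdc2 in WT fibroblasts and in K36M d0, where few counts were found.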
